A study of Mus musculus with 16 samples.

Results

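MicroRNA (miRNA) levels were compared between Ercc1-/- and wild-type (WT) primary mouse embryonic fibroblasts (MEFs) at passage 3 (P3), the early passage of the series. The 8 arrays were chosen by their labels from the 16 of the series: 4 held RNA of Ercc1-/- MEFs and 4 of WT MEFs, and in each genotype 2 came from cells grown in 20% O2 and 2 from cells grown in 3% O2. Both genotypes had the mixed strain background FVB/n C57Bl/6, the cells of every group were harvested near confluence, and the labels give no treatment besides oxygen. The study's methods state that 2 independent cell lines were used, isolated from embryos, but not which arrays share a line, so that arrays of both oxygen levels with the same genotype and replicate number may come from 1 line. The p-values below then measure the spread between these arrays, which may be smaller than that between embryos. The array carries probes for 611 mouse miRNAs. Of these, 276 were above background on any P3 array and 115 on all 8, and the 217 detected on each of the 2 arrays of 1 or more of the 4 P3 groups were tested.

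ERCC1 forms with XPF a nuclease that cuts DNA during nucleotide excision repair and the repair of interstrand crosslinks, and fibroblasts without it accumulate unrepaired endogenous damage and stop dividing early in culture. A miRNA is cut from a hairpin of a longer transcript and lowers the output of messenger RNAs that pair with its seed, the bases from position 2 to 8. Many fibroblast miRNAs lie in clusters or in introns of other genes, among them the Hox clusters, which hold the record of a cell's position along the body, and imprinted loci, where the parental origin of the chromosome sets which copy is read.

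The mature sequences below belong to the miRNAs on which the comparison turned. They are RefSeq entries on GRCm38.p6, written 5′ to 3′ with the seed in capitals. The array uses older names, and miR-195, miR-497 and miR-129-3p were matched to the current miR-195a-5p, miR-497a-5p and miR-129-2-3p. The first set, encoded in Hox clusters, shows 2 seeds.
miR-196a: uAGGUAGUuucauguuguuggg
miR-196b: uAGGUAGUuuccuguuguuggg
miR-10a: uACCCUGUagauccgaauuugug
miR-10b: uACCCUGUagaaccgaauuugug
MiR-196a and miR-196b differ by A12C and miR-10a and miR-10b by U12A, counted from the 5′ end, and how much signal the probes of each pair take from the other was not tested. MiR-196a is encoded at chr11:96265187-96265208 between Hoxb13 and Hoxb9 and at chr15:102973365-102973386 between Hoxc10 and Hoxc9. MiR-196b lies at chr6:52230129-52230150, on the minus strand between Hoxa9 and Hoxa10, miR-10a at chr11:96317186-96317208 inside Hoxb3, and miR-10b at chr2:74726074-74726096 inside Hoxd3 and Hoxd4.

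The second set is shown for a seed that miRNAs of separate loci share. MiR-322, miR-195 and miR-497 carry the seed of the miR-15/16 family, which is known for restraining cyclins and other drivers of the cell cycle, and miR-503 differs from the seed of miR-195 only by A8G.
miR-322: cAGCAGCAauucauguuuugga
miR-195: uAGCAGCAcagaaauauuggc
miR-497: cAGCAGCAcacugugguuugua
miR-503: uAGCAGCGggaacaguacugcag
miR-542-3p: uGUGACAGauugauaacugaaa
miR-450a-5p: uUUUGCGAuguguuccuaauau
miR-450b-3p: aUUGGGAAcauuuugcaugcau
MiR-322 (chrX:53054306-53054327), miR-503, miR-351, miR-542, miR-450a and miR-450b come from 7 hairpins within 6320 bases of the minus strand of the X chromosome, between the coding genes Hprt and Plac1. MiR-497 (chr11:70234730-70234751) and miR-195 (chr11:70235062-70235082) come from neighbouring hairpins on the plus strand of chromosome 11, whose mature arms span 392 bases.

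The third set holds leading miRNAs outside these clusters.
miR-675-3p: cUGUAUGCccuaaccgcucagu
miR-1906: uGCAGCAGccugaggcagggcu
miR-335-5p: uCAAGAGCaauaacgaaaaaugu
miR-31: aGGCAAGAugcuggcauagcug
miR-129-3p: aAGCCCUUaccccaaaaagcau
MiR-675-3p (chr7:142577078-142577099, minus strand) is read from H19, miR-335-5p (chr6:30741314-30741336, plus strand) from within Mest and miR-1906 from within Meg3 (chr12:109544588-109544609) and from an X-linked copy (chrX:88759485-88759506). H19, Mest and Meg3 are imprinted genes.

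The arrays differed in brightness and position before any genotype difference was considered. Between 178 and 257 miRNAs were above background on 7 of the arrays, and 132 on WT P3 20% O2 replicate 2, whose mean unscaled log2 signal was 6.18 against 7.52 to 9.03 on the other P3 arrays. On this array the lowest scaled signal above background was 23.9, against 1.56 to 6.70 on the others, and its effect on the results is given beside those it moved. Replicate 1 arrays were on 1 slide and replicate 2 arrays on another, and on both slides the WT arrays held positions 1 and 2 and the Ercc1-/- arrays positions 3 and 4, so that genotype and position on the slide cannot be told apart. The array measures no messenger RNA, so the Ercc1 transcript could not be used to check the genotype labels. MiR-210, which low oxygen is known to induce, checked the oxygen labels: its log2 scaled signal lay between 5.86 and 6.78 on the 4 arrays labelled 20% O2 and between 9.18 and 10.22 on the 4 labelled 3% O2. Of 22 miRNAs listed as abundant in mesenchymal cells, 19 were tested, and no epithelial, muscle, or liver and endothelial marker was above background on any P3 array.

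Ercc1-/- and WT MEFs differed at P3 in miRNAs of both directions. Levels are log2 scaled signals, after the arrays were brought to a common mean of the 115 miRNAs detected on all 8, and a difference is Ercc1-/- minus WT in a limma fit with oxygen and replicate as blocks. At a Benjamini-Hochberg adjusted p under 0.05 over the 217 miRNAs, 50 were called (23%), 21 higher in Ercc1-/- MEFs (9.68%) and 29 lower (13.4%). All 4 Ercc1-/- arrays lay above all 4 WT arrays for 13 miRNAs (5.99%) and below them for 21 (9.68%). Changes of at least 2-fold were found for 19 of the called miRNAs, 12 higher and 7 lower. The median difference of all tested miRNAs was -0.08, and it moved from -0.37 to 0.50 over the 7 scalings compared, so that the split of calls moved as well: 14 higher and 81 lower with the 75th percentile of the miRNAs above background on all arrays, but 51 higher and 8 lower with the 75th percentile of all miRNAs, 19 and 8 with the mean of all miRNAs and 18 and 6 with no scaling. Under all 7 scalings 18 miRNAs were called in the same direction, 12 higher and 6 lower, and 11 of them were called also without each array in turn: miR-322, miR-322*, miR-195, miR-335-5p, miR-129-3p and miR-31* higher, and miR-196a, miR-196b, miR-675-3p, miR-378 and miR-1906 lower. Other settings kept fewer of these 11 calls. With normexp background correction 4 held (miR-196a, miR-1906, miR-322 and miR-335-5p). The normexp setting added an offset of 50 to each spot, which makes log2 differences of dim miRNAs smaller. No other offset was fitted, so its part in lost calls and changed signs was not tested. With the mean of each possible cell line 7 held, without the replicate block 9 and with the software's total gene signal 1, miR-322. MiR-322* turned to -0.10 with normexp and miR-378 to 0.070 with the total gene signal.

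**Figure D1:**
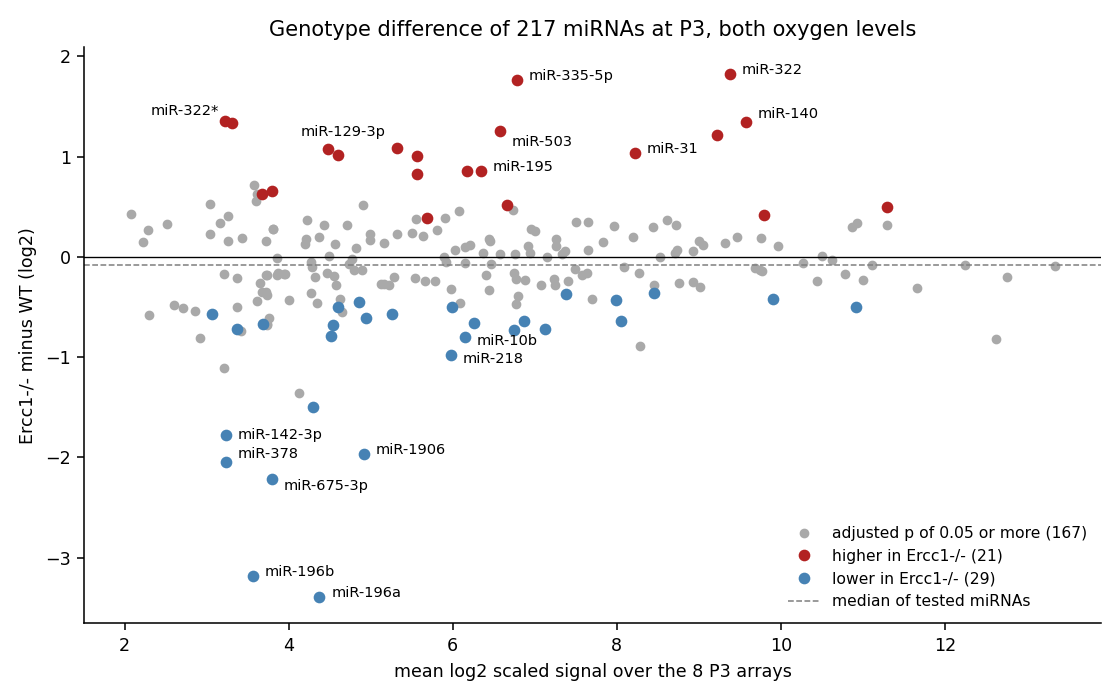
Difference between Ercc1-/- and WT MEFs (vertical axis, log2) against the mean log2 scaled signal over the 8 P3 arrays (horizontal axis) for the 217 tested miRNAs; each point is a miRNA, red if called higher in Ercc1-/- MEFs (21), blue if called lower (29) and grey if not called. The largest decreases, miR-196a at -3.39 and miR-196b at -3.18, stand below all other points, and miR-322 at 1.83 is the highest.

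MiRNAs of the Hox clusters fell in Ercc1-/- MEFs in 3 of the 4 tested, against 13.4% of all tested miRNAs, and miR-196a and miR-196b had the largest differences of all tested miRNAs. MiR-196a, which targets Hox messenger RNAs including that of Hoxb8, read 6.08 and 6.47 on the WT arrays in 20% O2 and 5.67 and 6.07 on those in 3% O2. On the Ercc1-/- arrays it read 2.51 and 2.82 in 20% O2 and 2.79 and 2.59 in 3% O2. The WT arrays all lay far above the Ercc1-/- arrays, of which only 2 were above background. The mean fell from 6.07 ± 0.33 to 2.68 ± 0.16 (SD, n = 4 each), a difference of -3.39 ± 0.16 (SE, adjusted p = 1.13e-04 in limma), or 10.5-fold. With normexp the difference was -0.94 (adjusted p = 0.00263).

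MiR-196b read 4.82, 5.95, 4.71 and 5.12 on the WT arrays and was not well above background on any Ercc1-/- array. With the Ercc1-/- arrays set, on each, at the higher of its own value and the lowest signal above background, it was at least 8.51-fold lower (measured means 1.97 and 5.15, adjusted p = 2.16e-04). With normexp it was at -0.56 and not called (adjusted p = 0.0741). MiR-10b, encoded within the HoxD cluster, lay between 6.27 and 6.91 on WT arrays and between 5.27 and 5.98 on Ercc1-/- arrays, without overlap. Its difference of -0.80 ± 0.17 was called (adjusted p = 0.0189), but under 4 of the 7 scalings and in 2 of the 8 fits that left out an array. MiR-10a of the HoxB cluster overlapped between the genotypes, at 6.05 to 6.92 and 5.60 to 6.22, and its -0.46 ± 0.25 was not called (adjusted p = 0.246). It turned to 0.14 with no scaling. Of the 9 Hox cluster miRNAs on the array, 5 were above background on some P3 array, 4 were tested and 3 were called lower, and their median difference was -1.99 beside -0.08 for all tested.

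Of 3 tested miRNAs of the imprinted H19/Igf2 locus, all had lower means in Ercc1-/- MEFs, with a median difference of -1.11, and 1 was called. Of all 217 tested, 120 had lower means and 13.4% were called lower. MiR-675-3p, cut from the growth-restraining H19 RNA, read 4.36 and 5.49 in WT MEFs in 20% O2 and 4.72 and 5.01 in 3% O2. In Ercc1-/- MEFs it read 2.37 and 3.20 in 20% O2 and 2.75 and 2.42 in 3% O2, and 2 of those arrays were above background. The groups did not overlap, and the difference was -2.21 ± 0.24 (adjusted p = 0.00261), 4.64-fold. With normexp it was at -0.47 and not called (adjusted p = 0.123). MiR-483 and miR-483*, the arms of a hairpin in an intron of Igf2, which encodes a fetal growth factor, had differences of -0.80 ± 0.24 (adjusted p = 0.061) and -1.11 ± 0.38 (adjusted p = 0.082), and both overlapped between genotypes. MiR-483* was above background on all 4 WT arrays and on no Ercc1-/- array. Without WT P3 20% O2 replicate 2, miR-483 was called (-1.08, adjusted p = 0.00239) and miR-483* was not (-0.73, adjusted p = 0.0692).

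**Figure D2:**
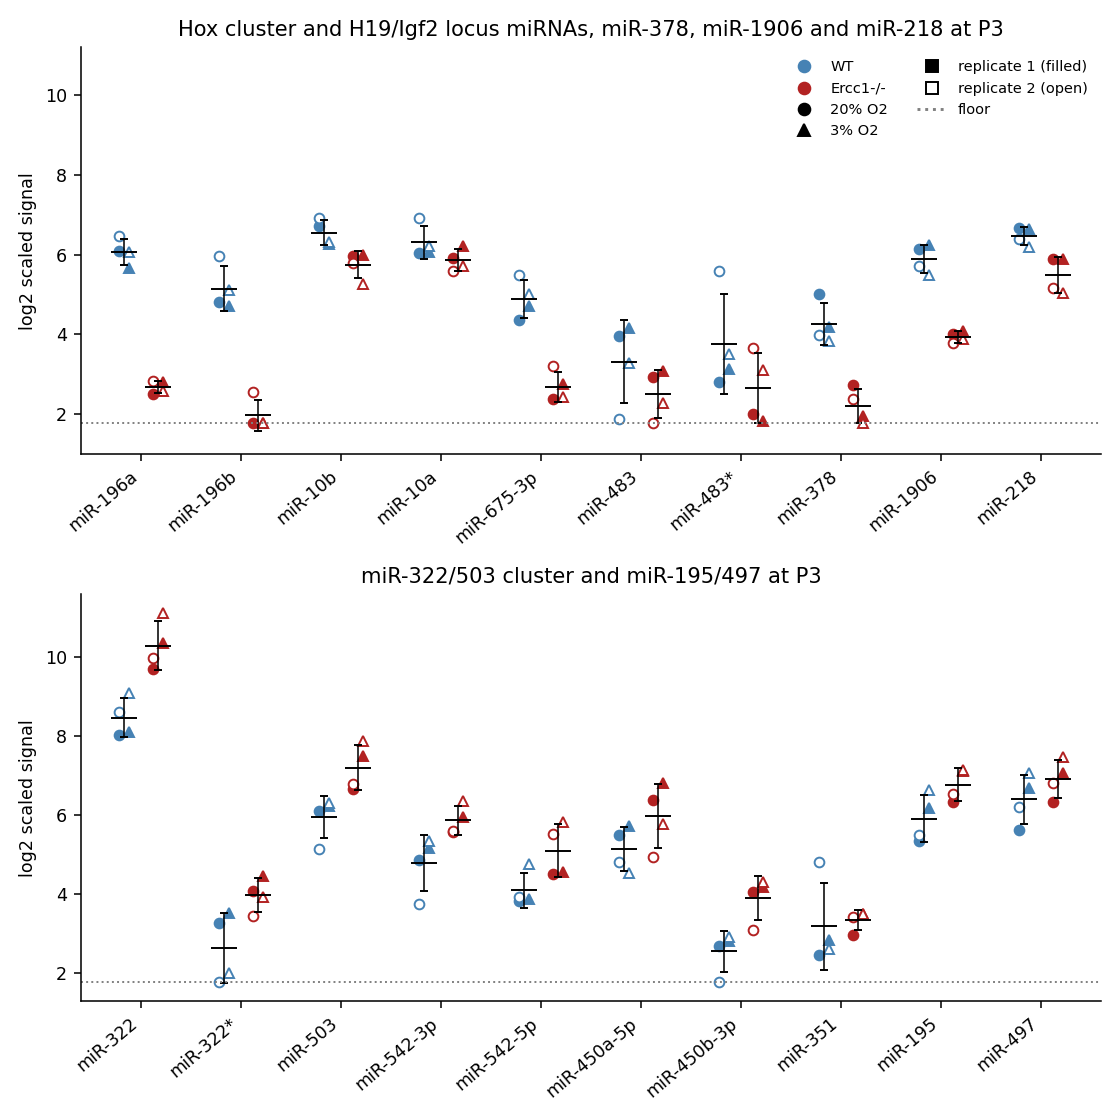
Log2 scaled signal of each P3 array (vertical axis) for Hox cluster and H19/Igf2 locus miRNAs with miR-378, miR-1906 and miR-218 (upper panel) and for the miR-322 and miR-503 cluster with miR-195 and miR-497 (lower panel); blue marks WT and red Ercc1-/- arrays, circles 20% O2 and triangles 3% O2, filled symbols replicate 1 and open symbols replicate 2, horizontal bars and whiskers the mean ± SD of 4 arrays, and the dotted line the floor. In the upper panel the genotypes overlap for miR-10a, miR-483 and miR-483* and are apart for the others. In the lower panel they are apart for miR-322, miR-503, miR-542-3p and miR-450b-3p and overlap for the others.

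The X-linked cluster of miR-322 and miR-503 rose in Ercc1-/- MEFs. Of its 11 miRNAs on the array, 9 were above background on some P3 array, 8 were tested and 7 were called higher, against 9.68% of all tested, with a median difference of 1.17. MiR-322, the mouse counterpart of human miR-424, read 8.03 and 8.62 on WT arrays in 20% O2 and 8.12 and 9.10 in 3% O2. On Ercc1-/- arrays it read 9.69 and 9.99 in 20% O2 and 10.36 and 11.13 in 3% O2. Every Ercc1-/- array was above every WT array, and the difference was 1.83 ± 0.18 (adjusted p = 0.00161), 3.55-fold. The other arm, miR-322*, differed by 1.34 ± 0.21 (adjusted p = 0.00886), with overlap between genotypes and 1 WT array at the floor.

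MiR-503, which shares targets in the cell cycle with the miR-15/16 family, read 6.10, 5.15, 6.23 and 6.31 in WT MEFs and 6.67, 6.78, 7.49 and 7.88 in Ercc1-/- MEFs, again without overlap (1.26 ± 0.23, adjusted p = 0.0142). The other members but miR-351 were called as well. MiR-542-3p differed by 1.09 ± 0.26 (adjusted p = 0.0303), miR-542-5p by 1.01 ± 0.20 (adjusted p = 0.0159), miR-450a-5p by 0.83 ± 0.19 (adjusted p = 0.0277) and miR-450b-3p by 1.36 ± 0.23 (adjusted p = 0.011). The genotypes overlapped for miR-542-5p and miR-450a-5p and not for miR-542-3p and miR-450b-3p. Fits without an array kept the call of miR-542-3p in 4 of 8 and of miR-450a-5p in 2 of 8, and miR-450b-3p turned to -0.11 with normexp. MiR-351, the member with the seed of miR-125, read 2.46 to 4.82 in WT and 2.97 to 3.50 in Ercc1-/- MEFs and was not called (0.16 ± 0.49, adjusted p = 0.806). The highest of its values was the dim array WT P3 20% O2 replicate 2, without which the difference was 0.74 (adjusted p = 0.0144). Of 15 other tested miRNAs whose genes lie only on the X chromosome, 0 were called higher and 2 lower (9.68% and 13.4% of all tested), with a median of -0.17.

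Of the other carriers of the miR-15/16 seed, the pair on chromosome 11 rose and miR-15a, miR-15b and miR-16 were not called. MiR-195 read 5.34, 5.50, 6.18 and 6.63 in WT MEFs and 6.33, 6.52, 7.11 and 7.14 in Ercc1-/- MEFs. It was higher in 3% O2 than in 20% O2 in each pair of arrays and overlapped between genotypes, but within each slide and oxygen level the Ercc1-/- array was the higher (0.86 ± 0.11, adjusted p = 0.00546). MiR-497 followed with 0.52 ± 0.10 (adjusted p = 0.0151). It overlapped between genotypes, at 5.63 to 7.07 in WT and 6.32 to 7.46 in Ercc1-/- MEFs. MiR-497 was called under 4 of the 7 scalings and in 6 of the 8 fits without an array. MiR-15a, miR-15b and miR-16 differed by 0.07, 0.32 and 0.12 (adjusted p = 0.62, 0.134 and 0.414). Of these 5 carriers outside the X-linked cluster 2 were called higher, against 9.68% of all tested.

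**Figure D3:**
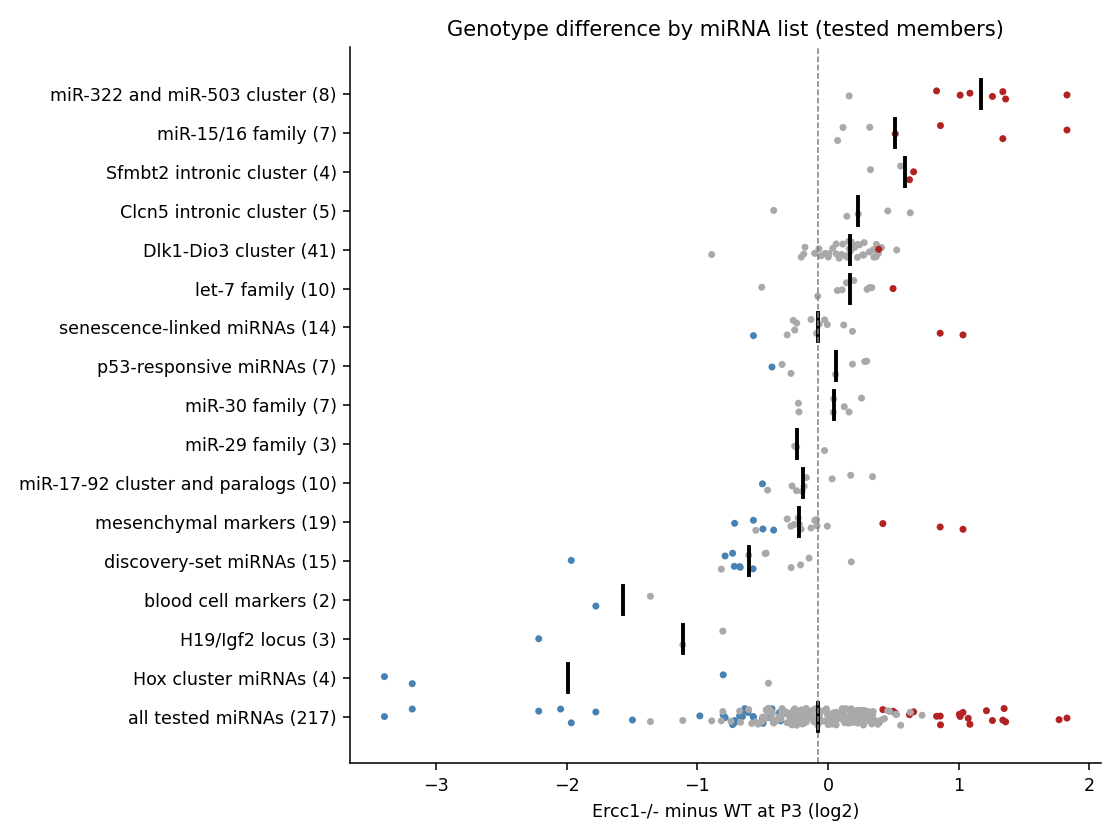
Difference between Ercc1-/- and WT MEFs at P3 (horizontal axis, log2) for the tested members of each list, with the number of members in brackets; each point is a miRNA, red or blue if called higher or lower and grey if not, black bars are list medians and the dashed line is the median of all 217 tested miRNAs. The Hox cluster list (median -1.99) lies lowest and the miR-322 and miR-503 cluster (median 1.17) highest.

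Outside these loci, miR-335-5p, both arms of miR-140, miR-129-3p, miR-31 and miR-455 had the largest increases. MiR-335-5p, from an intron of the imprinted gene Mest, read 7.04 and 6.65 on the WT arrays of replicate 1 and 4.51 and 5.40 on those of replicate 2. The Ercc1-/- arrays read 8.43 and 8.20 in replicate 1 and 6.83 and 7.21 in replicate 2. The genotypes overlapped across slides and were apart within each (1.77 ± 0.25, adjusted p = 0.00653, 3.41-fold). MiR-140 and miR-140*, the arms of a hairpin best known from cartilage, where it shapes growth plate chondrocytes, rose by 1.35 ± 0.25 (adjusted p = 0.0149) and 1.21 ± 0.29 (adjusted p = 0.0303), with no overlap for either. MiR-455, also abundant in cartilage, rose by 1.01 ± 0.24 (adjusted p = 0.0303) with overlap. Of miR-140* and miR-455, fits without an array kept the call in 2 of 8 each.

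MiR-31, which is encoded beside the Cdkn2a region and is common in fibroblasts, read 6.87 to 8.30 in WT MEFs and 8.53 to 8.90 in Ercc1-/- MEFs (1.03 ± 0.18, adjusted p = 0.0135). Its other arm miR-31* read 5.57 to 5.82 and 6.34 to 6.75 (0.86 ± 0.12, adjusted p = 0.00553), and neither arm overlapped between genotypes. MiR-129-3p, a miRNA known from neurons, read 3.60 to 4.28 in WT and 4.42 to 5.70 in Ercc1-/- MEFs (1.07 ± 0.12, adjusted p = 0.00261). Of 12 neural marker miRNAs on the array, 5 were above background on some P3 array and miR-129-3p was the only one tested. MiR-467b and miR-669a, from the large intronic cluster of the imprinted gene Sfmbt2, were called higher at 0.66 ± 0.10 (adjusted p = 0.00759) and 0.62 ± 0.13 (adjusted p = 0.016), 2 of the 4 tested members of that cluster, against 9.68% of all tested. Both turned sign with normexp, to -0.13 and -0.12.

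Among the remaining miRNAs that fell, miR-378 and miR-1906 changed most. MiR-378, a regulator of oxidative and fat metabolism, read 5.01, 3.99, 4.18 and 3.83 in WT MEFs and 2.72, 2.38, 1.95 and 1.77 in Ercc1-/- MEFs, of which 1 array was above background (-2.05 ± 0.16, adjusted p = 6.06e-04). MiR-1906 read 5.50 to 6.25 in WT and 3.77 to 4.09 in Ercc1-/- MEFs (-1.96 ± 0.12, adjusted p = 2.16e-04, 3.90-fold). Both were without overlap. MiR-1906 belongs to the high-numbered miRNAs found in early sequencing surveys, many of which have not been shown to be processed as miRNAs, and of the 15 such miRNAs tested 7 were called lower and 0 higher (13.4% and 9.68% of all tested), with a median of -0.61. That median lay between -0.90 and -0.07 over the scalings. MiR-690 (-0.73 ± 0.17, adjusted p = 0.0277) and miR-1904 (-0.72 ± 0.12, adjusted p = 0.00971) were among them, and each overlapped between genotypes. Fits without an array kept miR-690 in 3 of 8.

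MiR-218, from introns of the axon guidance genes Slit2 and Slit3, read 6.67, 6.38, 6.65 and 6.19 in WT MEFs and 5.88, 5.16, 5.89 and 5.04 in Ercc1-/- MEFs (-0.98 ± 0.12, adjusted p = 0.00367). The groups were apart on every array. MiR-212, which CREB is known to induce, differed by -0.65 ± 0.17 (adjusted p = 0.0355) and miR-202-3p by -0.64 ± 0.13 (adjusted p = 0.0159). Both overlapped between genotypes. MiR-210 was lower in Ercc1-/- MEFs at both oxygen levels, at 5.86 and 6.33 against 6.78 and 6.44 in 20% O2 and at 9.18 and 9.56 against 10.05 and 10.22 in 3% O2 (-0.64 ± 0.16, adjusted p = 0.0303). MiR-210 was called under 4 of the 7 scalings and in 2 of the 8 fits without an array. For miR-212 the counts were 3 and 3, and for miR-202-3p 4 and 5. MiR-199a-5p, a miRNA common in mesenchymal cells, had a smaller decrease than these. It read 11.00 to 11.34 in WT and 10.54 to 10.76 in Ercc1-/- MEFs (-0.50 ± 0.08, adjusted p = 0.0113), and it turned to 0.10 with no scaling.

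The arms of a hairpin mostly had the same sign. Among 29 hairpins with both arms tested, the arms had the same sign in 24. Both arms were called in 5 hairpins, those of miR-322, miR-542, miR-31, miR-140 and miR-214, and in each of these the direction was shared. In the 4 hairpins with 1 arm called the other arm had its sign too.

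Families often discussed for senescence and DNA damage were set beside the 23% of all tested miRNAs that were called. Of the 14 tested miRNAs linked to senescence, 3 were called, a share near that of all tested. MiR-31 and miR-31* were higher and miR-21* lower (-0.57 ± 0.11, adjusted p = 0.0149), and the list median was -0.08. MiR-21* turned to 0.030 with no scaling and to 2.54 with the total gene signal. Of the 7 tested p53-responsive miRNAs, 1 was called, miR-107, which was lower (-0.43 ± 0.08, adjusted p = 0.0149). It was called under 3 of the 7 scalings and turned to 0.17 with no scaling. The 5 tested arms of miR-34a, miR-34b and miR-34c, which p53 induces directly, were not called (adjusted p from 0.128 to 0.698). None of the 4 tested miRNAs that target genes of the DNA damage response was called (median -0.17), nor were any of the 3 of the miR-29 family (-0.24), the 7 of the miR-30 family (0.04) or the 5 of the Clcn5 cluster (0.23).

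Of 10 let-7 family members, which restrain growth genes such as Lin28 and Ras, let-7c was called higher (0.50 ± 0.14, adjusted p = 0.0474), and in 1 of the 8 fits without an array. Of 10 members of the miR-17 cluster and its paralogs, which promote cell division, miR-106b was called lower (-0.50 ± 0.08, adjusted p = 0.00978), and it turned to 0.10 with no scaling. Both counts are near the shares of all tested miRNAs, 9.68% called higher and 13.4% called lower. Of the 72 miRNAs on the array listed for the imprinted Dlk1-Dio3 cluster, 41 were tested. Of these 33 were higher, against 97 of all 217 tested. Among the 41 only miR-434-5p was called (0.39 ± 0.11, adjusted p = 0.0448), against 23% of all tested. MiR-1906, which has a copy within Meg3 between Dlk1 and Rtl1, was not in this list and was called lower (-1.96 ± 0.12). The median of the 41 was 0.17, and over the scalings it went from -0.12 to 0.74. The stem cell cluster of miR-290 had 0 tested members of 14.

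The summed signal of blood cell markers did not overlap between genotypes, by a narrow margin. Of 8 on the array, miR-142-3p and miR-223 were above background on some P3 array. MiR-142-3p was so on 3 WT arrays and 1 Ercc1-/- array, and miR-223 on 4 and 2. The summed scaled signal of both was 34.2 to 73.5 on WT arrays and 9.39 to 33.0 on Ercc1-/- arrays, partly from signals not above background. MiR-142-3p, which blood cells of all lineages express, read 3.96, 4.45, 4.04 and 4.03 in WT MEFs and 1.77, 2.19, 3.42 and 2.00 in Ercc1-/- MEFs (-1.78 ± 0.37, adjusted p = 0.0177). It was called in 4 of the 8 fits without an array. MiR-223 of myeloid cells overlapped and was not called (-1.36 ± 0.46, adjusted p = 0.083), and the erythroid markers miR-144 and miR-451 were not above background on any P3 array. Without the dim array, on which the summed signal was 73.5, the other WT arrays lay between 34.2 and 44.5, miR-142-3p differed by -1.51 (adjusted p = 0.0248) and miR-223 by -0.91 (adjusted p = 0.0845). Fewer cells of a type and less miRNA per cell cannot be told apart in such cultures, and the part of blood cells in the other differences was not tested. For the mesenchymal list the summed signal was 32802 to 36496 in WT and 30235 to 32570 in Ercc1-/- MEFs, with miR-31, miR-31* and miR-99a called higher and miR-199a-5p, miR-214, miR-214* and miR-21* lower.

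The 2 slides, 1 for each replicate number, gave the same direction for all 50 called miRNAs, as against 144 of the 217 tested. Part of the first count follows from the calls, which used both slides. For the leading miRNAs the sizes were close: miR-196a differed by -3.22 on the replicate 1 slide and -3.56 on the replicate 2 slide, miR-322 by 1.95 and 1.70, miR-675-3p by -1.98 and -2.44 and miR-1906 by -2.15 and -1.78. MiR-503 (0.92 and 1.60) and miR-322* (0.88 and 1.80) differed more between slides. Across the 217 miRNAs the differences on the slides had a Pearson r of 0.72 and a Spearman rho of 0.54, a description across miRNAs of the same 8 arrays.

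**Figure D4:**
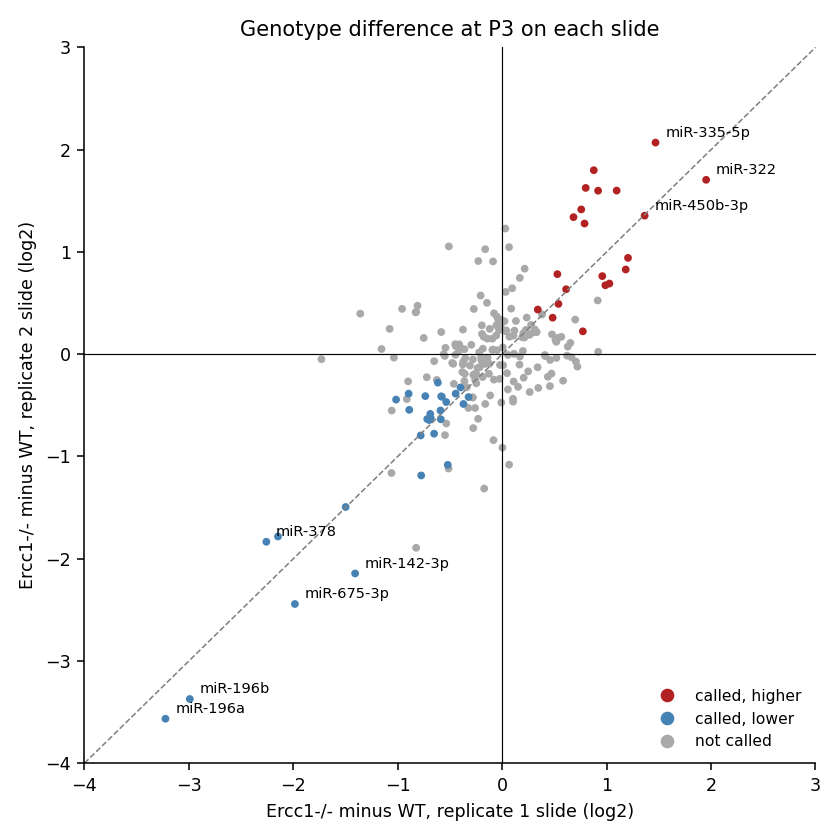
Difference between Ercc1-/- and WT MEFs (log2) on the replicate 1 slide (horizontal axis) and the replicate 2 slide (vertical axis) for the 217 tested miRNAs; each value is the mean of 2 Ercc1-/- arrays minus the mean of 2 WT arrays, colours as for the calls over both slides, and the dashed line marks equal differences. The largest differences, those of miR-196a and miR-196b, lie near that line. Grey points scatter around 0 on both axes, some far from the line, such as miR-494 (-1.73 and -0.05) and miR-328 (-0.17 and -1.31).

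The array that stood apart moved the number of calls by over 1.5 times. Without WT P3 20% O2 replicate 2, 95 miRNAs were called, 36 higher and 59 lower, including all 50, and for 0 of the 50 did the size of the difference move by over 1.5 times. MiR-196a then differed by -3.30, miR-322 by 1.89, miR-675-3p by -2.07, miR-335-5p by 1.51 and miR-503 by 1.08, each still called. On the replicate 1 slide alone 111 were called and on the replicate 2 slide alone 2. Without the replicate block 18 of the 50 were called, and with the mean of each possible cell line 12 miRNAs, 11 of them among the 50.

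The genotype difference was also taken at each oxygen level. Within 20% O2 14 miRNAs were called (6.45%), and within 3% O2 8 (3.69%), and each of them was also called over both. Leaving out single arrays moved these counts to between 1 and 58 and between 0 and 33. All 8 called in 3% O2 were also called in 20% O2, miR-196a, miR-196b, miR-1906, miR-378, miR-676, miR-322, miR-675-3p and miR-129-3p. MiR-196a differed by -3.61 in 20% O2 and -3.18 in 3% O2, and miR-322 by 1.52 and 2.13. In the test of the difference between oxygen levels limma called 0 of 217 miRNAs (0%), with 2 at an unadjusted p under 0.05 and a smallest adjusted p of 0.813. For miR-140, at 1.75 in 20% O2 and 0.94 in 3% O2, and miR-212, at -0.99 and -0.32, the adjusted p of the difference was 0.813 as well. Both were called in 20% O2, and without WT P3 20% O2 replicate 2 they were at 1.34 and -0.89 there and were not called (adjusted p = 0.0786 and 0.0782).

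The same difference was taken at passage 7 (P7), the late passage of the series. In a fit of all 16 arrays it had the sign of P3 for 25 of the 50 called miRNAs, a share near the 99 of all 217 tested. The test of the change in the genotype difference called 3 of 235 miRNAs (1.28%), miR-335-5p, miR-497 and miR-129-5p, with 59 at an unadjusted p under 0.05. It called 0 without WT P3 20% O2 replicate 1 or without replicate 2 of that group, and 113 without Ercc1-/- P7 20% O2 replicate 1. MiR-335-5p went from 1.86 at P3 to -1.88 at P7 (adjusted p = 0.0104) and miR-497 from 0.61 to -2.36 (adjusted p = 0.0104). MiR-497 lay between 4.63 and 7.22 in WT and between 1.55 and 5.16 in Ercc1-/- MEFs at P7. MiR-322 went from 1.92 to -0.32, a change that was not called (adjusted p = 0.0923), and was above background on 3 WT and 2 Ercc1-/- arrays at P7. At P7 the median difference was -0.04 for the miR-322 and miR-503 cluster, 1.07 for the H19/Igf2 locus and -1.31 for the Hox clusters. Members of the last 2 lists went both ways at P7. MiR-675-3p kept its sign, at -0.56, with no Ercc1-/- and 2 WT arrays above background, and miR-483 was at 1.72. MiR-10a was at 1.68 and the other tested Hox cluster miRNAs between -1.72 and -1.04. Several of these miRNAs were dim at P7. MiR-450b-3p was above background on no array, miR-322*, miR-542-3p and miR-450a-5p on 1 Ercc1-/- and 2 WT arrays, and miR-503 on 3 of each. MiR-483*, whose 1.07 was the H19/Igf2 median, was above background on 1 Ercc1-/- and no WT array, and miR-483 on all. MiR-196b was above background on 1 WT and no Ercc1-/- array, and miR-10a on 1 of each. MiR-196a kept its direction, at -1.72 at P7, with 2 of 4 WT arrays and no Ercc1-/- array above background there. MiR-31 differed by 0.92 at P7 against 1.12 at P3, and miR-129-3p by 2.76 against 1.16. For miR-196a, miR-31 and miR-129-3p the change with passage was not called (adjusted p = 0.153, 0.718 and 0.215).

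**Figure D5:**
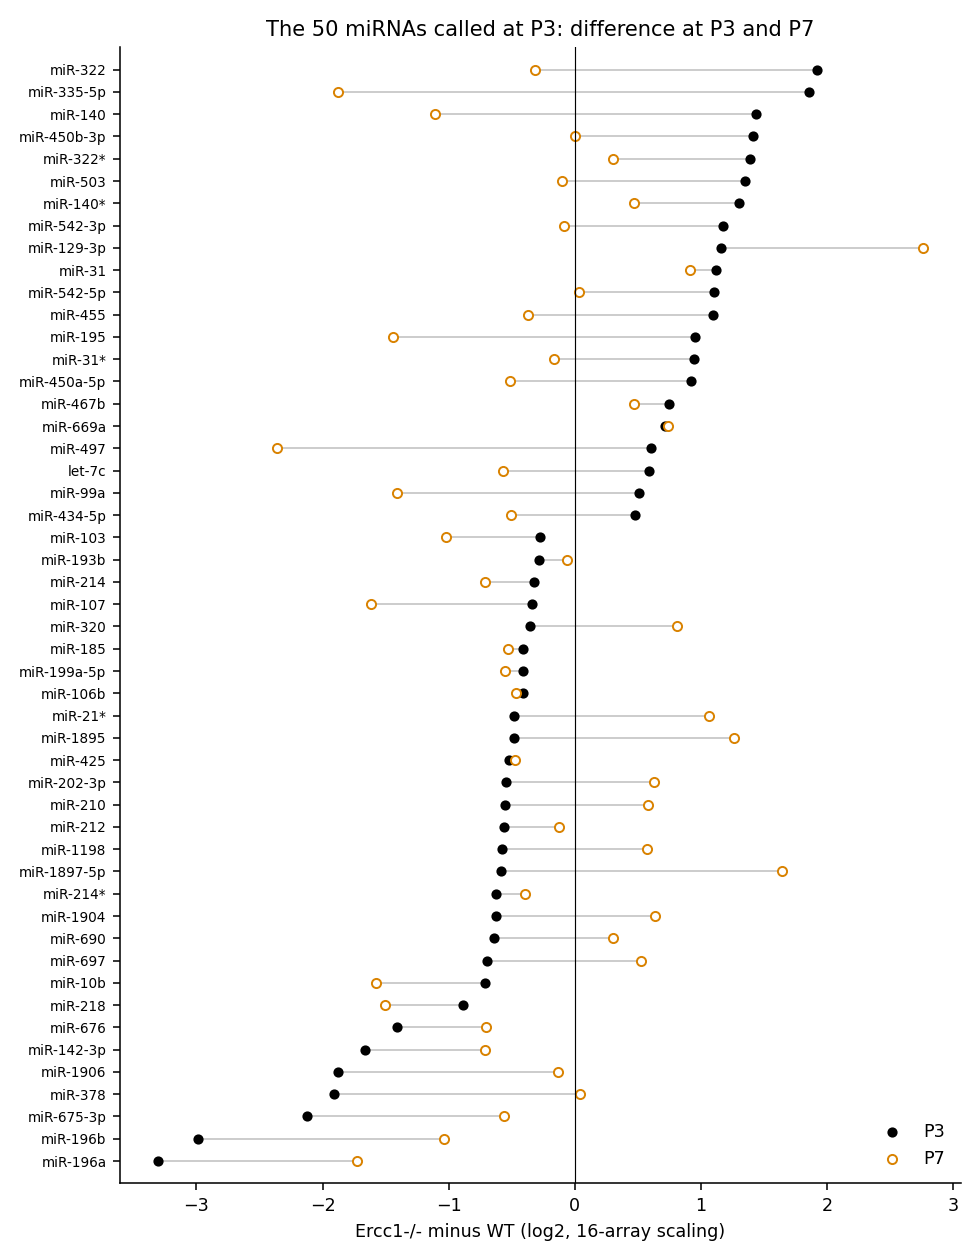
Difference between Ercc1-/- and WT MEFs (horizontal axis, log2, from a fit of all 16 arrays) at P3 (black) and P7 (open orange) for each of the 50 miRNAs called at P3 (rows, ordered by the P3 value). MiR-335-5p (1.86 and -1.88) and miR-497 (0.61 and -2.36) change sign, while miR-196a (-3.30 and -1.72) and miR-31 (1.12 and 0.92) keep it.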

How the data were processed

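Total RNA was labelled with Cy3 and hybridized to Agilent mouse miRNA V2 arrays, 1 colour. The authors extracted spot intensity with Agilent Feature Extraction (version 10.7.1.1 per the file headers), which subtracts each spot's background and does not scale between arrays. In the deposited series table the intensity is summed over the probes of a miRNA. Control and outlier spots were left out, spots were averaged per probe and probes per miRNA. A probe was above background with a share of at least 0.5 of its spots well above it. Each array was divided by the geometric mean of 115 miRNAs detected on all and floored at 3.42, the median of their lowest scaled signals above background. limma 3.58.1 in R 4.3.3 fitted genotype with oxygen and replicate as blocks (4 residual and 2.08 prior degrees of freedom), checked on simulated data. The simulated arrays had independent noise and no floor, so the check does not cover arrays that share a cell line or dim signals. Replicate numbers pair the arrays: differences between slides correlated between groups (r from 0.423 to 0.703), the number being the slide. The number of arrays limits the precision. Named were the 12 largest called changes per direction (above background on all 4 arrays of the higher genotype, same direction on both slides), members of the Hox, miR-322 and miR-503, and H19/Igf2 lists, up to 4 per other list, up to 5 calls per oxygen level or interaction, and detected blood markers; miR-15a, miR-15b, miR-16, miR-676, miR-99a and miR-214 were added after their values were seen. Members and lists were chosen with earlier results of these data known. Alternatives changed scaling, background, summary, filter, floor, blocks, test and arrays. The normexp alternative used median spot signals and an offset of 50.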

Additional observations from a re-analysis of the deposited data

Results flagged for a closer look

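Each genotype has 4 P3 arrays, and an array was singled out where its gap to the nearest other, as a share of the range, exceeded Dixon's critical value, which chance gives in about 1 in 20 groups. MiR-196b on Ercc1-/- P3 20% O2 replicate 2 read 2.55, above the floor at which the other 3 Ercc1-/- arrays lay, and was not above background there. MiR-351 read 2.97 on Ercc1-/- P3 20% O2 replicate 1, below the others of its genotype, and 4.82 on WT P3 20% O2 replicate 2, above the others. MiR-542-5p read 4.75 on WT P3 3% O2 replicate 2. MiR-142-3p read 4.45 on WT P3 20% O2 replicate 2, the dim array.

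The genotype difference changed with passage for 3 miRNAs, P7 minus P3. For miR-129-5p, above background on 1 P3 array and so not tested at P3, it changed by 3.11. For miR-335-5p, above background on 2 of 4 Ercc1-/- arrays at P7, it changed by -3.74 and for miR-497 by -2.97. The cause of these changes was not tested.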

How the results depend on the processing

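The pooled count of 50 calls fell to 27 with the mean of all miRNAs, 24 with no scaling, 17 after normexp, 33 when dim miRNAs were kept, 18 with no replicate block, 12 with means of possible cell lines, 12 with all 16 arrays fitted together and 1 with the software's total gene signal, and rose to 95 with the 75th percentile of detected miRNAs. The split was 25 and 24 with scaling over all 16 arrays and 22 and 17 with quantile scaling. A random block for the possible cell line kept 44. The methods' t-test gave 17 at its threshold and 9 after Benjamini-Hochberg. In 20% O2, 14 calls became 36 (75th percentile of detected miRNAs), 7 (quantile), 7 (normexp), 9 (software detection), 22 (intensity trend), 3 (no replicate block), 3 (all 16 arrays), 5 (t-test) and 0 (t-test adjusted, total gene signal, no filter). In 3% O2, 8 became 4 (quantile), 5 (no scaling), 5 (normexp), 1 (miRNAs above background on all arrays), 17 (intensity trend), 4 (no replicate block), 3 (all 16 arrays), 5 (t-test) and 0 (t-test adjusted, total gene signal, no filter). The 3 calls by passage became 6 with the mean of all miRNAs and 0 with no replicate block. Pooled calls were 29 without WT P3 20% O2 replicate 1, 21 without WT P3 3% O2 replicate 1, 15 without Ercc1-/- P3 20% O2 replicate 1, 31 without Ercc1-/- P3 3% O2 replicate 2 and 95 without WT P3 20% O2 replicate 2. Leaving out arrays or slides gave 2 to 111 pooled calls, 1 to 58 in 20% O2, 0 to 33 in 3% O2, 0 to 3 for genotype by oxygen (3 without WT P3 20% O2 replicate 1) and 0 to 113 for genotype by passage (73 without WT P7 3% O2 replicate 1). Without WT P3 20% O2 replicate 2 and rescaled, an alternative chosen after seeing the data, the counts were 99, 2 and 31. The cause of these moves was not tested.

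Some differences turned sign. With no scaling miR-10a was at 0.14, miR-106b at 0.10, miR-199a-5p at 0.10, miR-107 at 0.17 and miR-21* at 0.030. With normexp miR-322* was at -0.10, miR-351 at -0.17, miR-450b-3p at -0.11, miR-467b at -0.13, miR-669a at -0.12 and miR-434-5p at -0.0091. With the total gene signal miR-351 was at -0.053, miR-378 at 0.070 and miR-21* at 2.54. MiR-351 was at -0.13 with the 75th percentile of detected miRNAs and at -0.26 with 4 times the floor, and without an array or slide at -0.26 to 0.74. MiR-10a went from -0.91 to 0.0025 over those fits.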

Other observations

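The software's total signal per miRNA did not match the sum of its own probe totals for part of the miRNAs. Above background, 29 to 50 miRNAs per P3 array were off by over 5%, and for 57 of 84 starred miRNAs that were off, the excess was within 5% of the total of the other arm. Let-7a* had a total of 9027.5 on Ercc1-/- P3 20% O2 replicate 1, where its probes summed to 6.25 and those of let-7a to 9023.4, while on replicate 2 of that group its total was 2.37. With the sum of the probe totals, an alternative chosen after seeing the data, 50 miRNAs were called, the same 50 as from the processed spot signals. With the software's totals 1 was called, miR-322.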
